A study of Mus musculus with 721 samples.

Results

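The cells described here were 64 insulin-expressing cells from the pancreas of mouse embryos at E14.5 and E15.5, where E gives the day of embryonic development. They were chosen by their transcripts: a cell was kept if at least 100000 of its fragments mapped to the genome and at least 1500 genes reached 1 FPKM (the authors' measure of fragments relative to transcript length), and a kept cell counted as an insulin cell if Ins1 or Ins2 stood at 100 FPKM or more. Of 721 cells in the series, 658 were kept, and 74 of those were insulin cells over all days. The 64 cells came from 4 cell sets, each the cells of 1 day in 1 of 2 runs (the labels do not say what was run): 8 cells at E14.5 in run 1, 13 at E14.5 in run 2, 20 at E15.5 in run 1 and 23 at E15.5 in run 2. All were eGFP-positive cells sorted one to a well from Neurogenin 3-eGFP embryos, in which the fluorescent protein marks cells that switch on, or have recently switched on, the endocrine progenitor factor Neurog3. No treatment separated the groups, and the labels gave neither the strain nor the number of embryos. Full-length cDNA was made by SMART-seq from each sorted cell, so each library was meant to hold the RNA of a single cell. For comparison, 215 kept cells of the same 4 sets with both insulin genes under 10 FPKM were used (79, 64, 36 and 36 in the same order), and are called cells without insulin below.

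In the mouse pancreas, endocrine cells arise from Neurog3-expressing progenitors, pass through a precursor stage marked by Fev and Pax4, and then switch on a hormone. The days studied fall in the secondary transition, when most beta cells begin to form. A beta cell makes proinsulin on ribosomes at the endoplasmic reticulum (ER), where chaperones such as Hspa5 and Hsp90b1 fold it and protein disulfide isomerases form its disulfide bonds. When unfolded protein builds up, the sensors of the unfolded protein response raise the transcription of these chaperones, partly through the factors Xbp1 and Atf6. The comparison asks what changes in insulin cells over 1 day of this period.

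The insulin cells held between 113328 and 1990000 mapped fragments, with medians of 519861 and 422589 at E14.5 and of 794398 and 576132 at E15.5 (run 1 then run 2). The deposited FPKM followed the depth of the cell, so values below were scaled to a common depth of 587177 fragments and are given as depth-scaled FPKM; only the choice of the insulin cells rests on the deposited values. A pair of E14.5 libraries stood apart: 1 cell of run 1 and 1 of run 2 carried the same index pair and correlated at 0.852 over genes on the log scale, while the next most alike cells of the 2 runs reached 0.72. They held 8463 and 12309 genes at 1 FPKM or more, both were insulin cells by the rule, and both also held Gcg, Ghrl and Pyy. The runs had 83 index pairs in common at E14.5 and 77 at E15.5, and cells with the same index were otherwise no more alike than any pair (median r of 0.520 against 0.520 and of 0.525 against 0.523). Whether the alike libraries share RNA was not tested, and the main results are given with and without them. The sets also differed in sex-linked transcripts. Xist, the transcript of the inactive X chromosome, stood at 1 FPKM or more in 7 of 8 and 13 of 13 cells at E14.5 against 0 of 20 and 1 of 23 at E15.5, while a Y-linked transcript did so in 0 of 8, 0 of 13, 20 of 20 and 23 of 23 cells. Day, sex and embryo therefore cannot be told apart in any comparison here, and the cells of a day in both runs may come from the same embryos.

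The insulin genes chose the cells, so their levels are a description and have no test. Insulin cells made up 8.5% (95% exact interval 3.75 to 16.1) and 15.3% (8.4 to 24.7) of kept cells at E14.5 and 22.7% (14.47 to 32.9) and 28% (18.7 to 39.1) at E15.5. Mean Ins2 was 20341 and 16361 depth-scaled FPKM at E14.5 against 64021 and 97704 at E15.5. Mean Ins1 was 663 and 979 in the E14.5 sets and 2126 and 6254 in the E15.5 sets. Both E15.5 sets lay above both E14.5 sets for each gene, but single cells overlapped widely: Ins2 ran from 0 to 97041 and from 0 to 115356 in the E14.5 sets and from 0 to 257263 and from 72.2 to 446024 in the E15.5 sets. Both insulin genes reached 100 deposited FPKM in 29 of the 64 cells, only Ins2 did in 30 and only Ins1 in 5. At the edge of the rule, the 3 lowest insulin cells held 106.7, 106.7 and 145.9 FPKM of their higher insulin gene, and the 3 cells just under it held 90.9, 91.8 and 92.5. A further 70 cells of the 4 sets lay between 10 and 100 FPKM, and with a minimum of 10 FPKM the insulin share rose to 59.1% and 56.1% at E15.5 against 16% and 24.7% at E14.5.

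Across all genes, E15.5 insulin cells were compared with E14.5 insulin cells over the 4 set means, with the run as a term in a limma fit on log2(FPKM + 1). Of 14120 genes tested, 49 passed an adjusted p of 0.05 (0.347% of genes), 40 of them higher at E15.5 (0.283%) and 9 lower (0.0637%). Predicted or small RNA genes made up 22 of the 49 (44.9%, against 19.6% of all genes tested), and 14 of those 22 were at 0 in both E14.5 sets. Leaving these and the Y-linked Eif2s3y aside, 26 named genes passed, 23 higher and 3 lower, each with the same direction in both runs. The fit favours genes whose runs agree, so that agreement is no separate support for them. Tested on simulated data that also held genes made to change, this fit called about as many unchanged genes as it called in all here. Such planted changes loosen the cut of the adjustment, so the share of false calls among the 49 is not known. No single call is firm. The count rests on thin replication: it was 2 without the run term, 0 with any 1 of the 4 sets left out, 0 without the dependence of the variance on expression level, and 396 with the FPKM as deposited, which shifted the median of all genes to 0.67. When the log values of cells were averaged in place of their FPKM, which weighs the typical cell more than the highest, 14 of the 26 passed. All 26 genes kept their direction in each of the 22 alternatives, which draw on the same sets and so are not independent. Without the pair of alike libraries 70 genes passed, among them 24 of the 26; Pdia3 and Sod1 did not. The day differences of all genes in run 1 and run 2 correlated at 0.072 (Pearson's r across genes, which are not independent replicates).

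**Figure D1:**
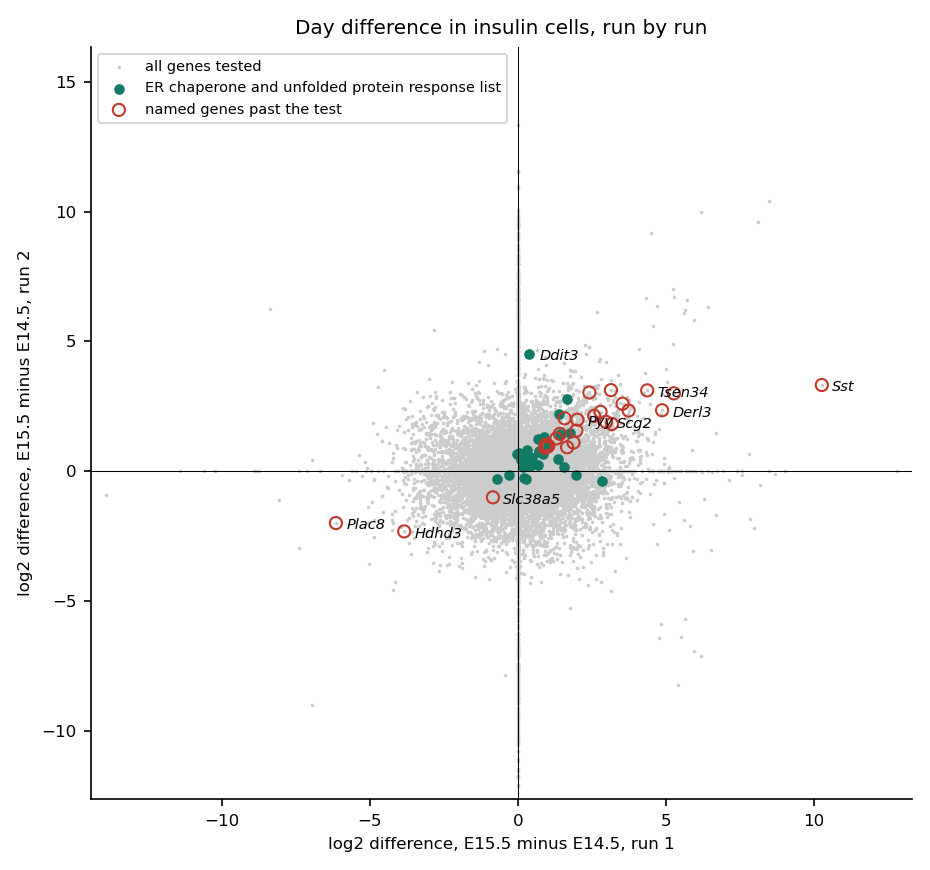
Log2 difference in mean depth-scaled FPKM between E15.5 and E14.5 insulin cells, run 1 on the horizontal and run 2 on the vertical axis. Each grey point is 1 of the genes tested, green points are the 30 genes of the ER list and red rings are the 26 named genes past the test. Grey points scatter around 0 with r = 0.072 between the runs. Of the rings, 23 lie at upper right and 3 at lower left, but the fit that picked them favours genes whose runs agree.

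Of the islet peptide genes other than insulin, 4 of 10 tested passed, all higher at E15.5 (0.283% of all genes did): Pyy, Iapp, Ppy and Sst. The list went both ways, with 6 positive and 4 negative. At an unadjusted p under 0.05 in limma, 6 were higher and 2 lower. Both E15.5 sets lay above both E14.5 sets in 4 members (40%, against 16.9% of all genes) and below in 1 (10%, against 15.8%). The median difference of the list was 0.94 log2 units against -0.02 over all genes. Pyy encodes peptide YY, a gut and islet peptide that is abundant in fetal endocrine cells, and lies at chr11:102106676-102107832 (GRCm38). Its mean was 6042 and 5624 FPKM at E14.5 against 24366 and 22309 at E15.5, a 4-fold difference (log2 2.0, SE 0.13, adjusted p = 7.55e-07). The set means did not overlap, and the runs gave 2.01 and 1.99, but single cells ranged from 0 to 27719 at E14.5 in run 1 and from 0 to 71367 at E15.5 in run 2. At E15.5 in run 1 the highest cell held 156168 FPKM. The median cell held 3590 and 4977 at E14.5 against 5654 and 12448 at E15.5, and the mean of logs gave a difference of 2.19. Pyy had the lowest adjusted p of the 26 named genes, stayed past the threshold in 16 of the 22 alternatives, and its log2 difference in cells without insulin was 1.55. Without the pair of alike libraries the E14.5 means of Pyy were 6334 and 5659.

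Iapp encodes the islet amyloid polypeptide that beta cells secrete together with insulin. Its mean was 5618 and 6402 FPKM at E14.5 against 10913 and 13148 at E15.5, a 2-fold difference (log2 1.0, SE 0.14, adjusted p = 0.0024), and 20 of 21 insulin cells at E14.5 and 41 of 43 at E15.5 reached 10 FPKM. Ppy, which encodes pancreatic polypeptide, had means of 87.7 and 69 FPKM at E14.5 and of 529 and 307 at E15.5 (log2 2.36, SE 0.28, adjusted p = 0.0011). The Ppy difference came from few cells: 33.3% of insulin cells at E14.5 and 39.5% at E15.5 reached 10 FPKM, while the highest cell held 463 at E14.5 and 4855 at E15.5. Sst, the delta cell hormone, had means of 0 and 10.7 FPKM at E14.5 and of 1242 and 116 at E15.5 (log2 6.80, SE 1.00, adjusted p = 0.0042). Only 1 of 21 cells at E14.5 and 5 of 43 at E15.5 reached 10 FPKM of Sst, and 1 cell at 24480 FPKM carried nearly all of the mean in run 1. The single E14.5 cell with Sst was 1 of the alike libraries: without them both E14.5 means were 0 and the difference was 8.58 log2 units. With the mean of logs it was 0.98 for Sst and 0.59 for Ppy, and neither passed (adjusted p = 0.53 and 0.87 in limma).

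Gcg and Ghrl did not pass, and both changed with the processing. Gcg, which encodes glucagon, had means of 6036 and 3433 FPKM at E14.5 and of 6532 and 3103 at E15.5, so that the runs differed more than the days (log2 -0.02, SE 0.15, adjusted p = 0.99). Gcg depended on which cells and which average were taken: over the 22 alternatives it ran from -8.66 (insulin minimum of 1000 FPKM) to 1.57 (FPKM as deposited) and passed in 3, these and the mean of logs (-2.52). Among the alternatives, that of cells under 100 FPKM of Gcg chose its cells by Gcg itself. Gcg reached 10 FPKM in 8 of 21 insulin cells at E14.5 and in 8 of 43 at E15.5. Ghrl, the ghrelin gene, had means of 216 and 116 FPKM at E14.5 and of 7293 and 125 at E15.5, and its highest cell at E15.5 in run 1 held 136776 (adjusted p = 0.18 in limma). Without the pair of alike libraries the E14.5 means of Ghrl were 60.04 and 0. The difference was then 6.94 log2 units (adjusted p = 1.07e-11 in limma). That difference rests on single cells at E15.5: the highest held 136776 FPKM in run 1 and 2854 in run 2, nearly all of each mean. Ghrl reached 10 FPKM in 3 of 21 insulin cells at E14.5 and in 3 of 43 at E15.5, and the mean of logs gave -0.59. Over the 22 alternatives Ghrl ran from -3.94 to 9.3 and passed in 5. Insulin cells often held another hormone: at 100 FPKM or more, Pyy was present in 18 of 21 and 38 of 43 cells, and 10 of 21 cells at E14.5 and 18 of 43 at E15.5 held 2 or more of Gcg, Sst, Ghrl, Ppy and Pyy. Insulin cells with none of these 5 numbered 3 and 5.

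**Figure D2:**
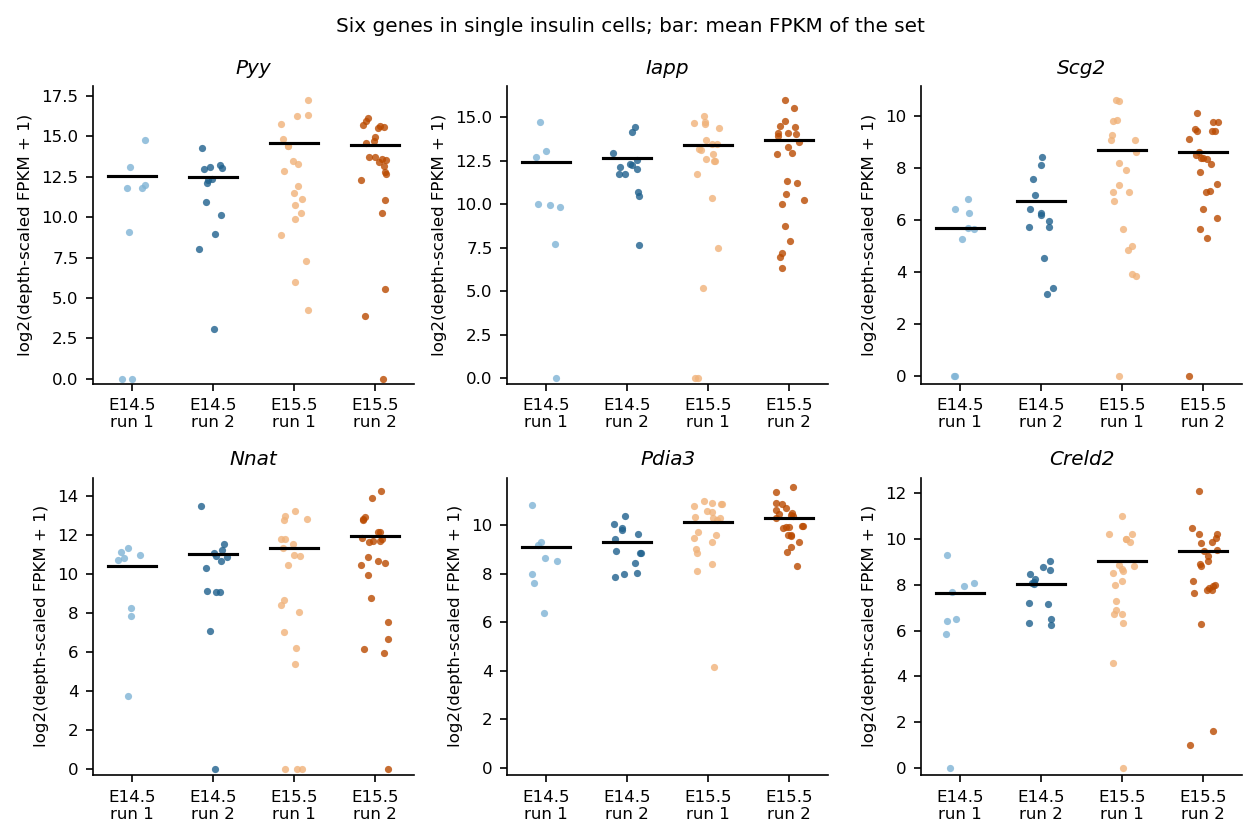
Depth-scaled FPKM (log2 of the value + 1, vertical axis) of Pyy, Iapp, Scg2, Nnat, Pdia3 and Creld2 in each of the 64 insulin cells, by day and run on the horizontal axis. Black bars mark the mean FPKM of the set on the same scale; both E15.5 bars lie above both E14.5 bars in every panel, while the single cells of the days overlap.

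Genes for protein folding in the ER mostly had higher means at E15.5, although few passed. All 30 genes of the ER chaperone and unfolded protein response list were tested; 26 had a positive difference, 2 passed (Creld2 and Pdia3, both higher at E15.5) and 15 had an unadjusted p under 0.05, all of them higher at E15.5. Over all genes, 0.347% passed, 49% had a positive difference and 4.94% were higher at an unadjusted p under 0.05 (8.48% in either direction). In 20 of the 30 (66.7%), both E15.5 sets lay above both E14.5 sets, against 16.9% of all genes, and in 1 (3.3%) both lay below, against 15.8%. The list's median was 0.65 log2 units, with 0.58 in run 1 and 0.59 in run 2. In cells without insulin the median of the same genes was -0.05. In the alternatives the list's median in insulin cells ran from 0.30 (insulin minimum of 10 FPKM) to 1.41 (FPKM as deposited, where the median of all genes was 0.67), and it was 0.59 without the pair of alike libraries.

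Creld2, a secreted ER protein induced by ER stress (chr15:88819646-88826683, GRCm38), had means of 197 and 259 FPKM at E14.5 and of 530 and 708 at E15.5 (log2 1.43, SE 0.23, adjusted p = 0.0084). Pdia3, a disulfide isomerase that works with the lectin chaperones (chr2:121413775-121438687), had means of 543 and 635 at E14.5 and of 1111 and 1258 at E15.5 (log2 1.01, SE 0.19, adjusted p = 0.036). Without the pair of alike libraries Pdia3 no longer passed (0.89, adjusted p = 0.055 in limma), while Creld2 did (1.33, adjusted p = 0.0064 in limma). The highest Creld2 cell at E15.5 in run 2 held 4330 FPKM, against a median of 474. With the mean of logs neither gene passed, at 1.04 for Creld2 and 1.06 for Pdia3 (adjusted p = 0.48 and 0.075 in limma). Over the 22 alternatives Creld2 passed in 8 and Pdia3 in 5. For both genes the runs gave nearly the same difference, 1.42 and 1.44 for Creld2 and 1.03 and 0.99 for Pdia3. The fit favours such genes, so this is no separate support. Cells without insulin gave 0.15 for Creld2 and 0.06 for Pdia3. Among the lumenal chaperones that did not pass, Hspa5, the Hsp70 chaperone of the ER, had means of 1302 and 1029 FPKM at E14.5 and of 1552 and 1571 at E15.5 (adjusted p = 0.50). Hsp90b1, its Hsp90 partner, had 388 and 453 against 637 and 770 (adjusted p = 0.25). The disulfide isomerases Pdia6 and P4hb differed by 0.73 and 0.75 log2 units (adjusted p = 0.21 and 0.20), and the lectin chaperones Calr and Canx by 0.50 and 0.17 (adjusted p = 0.52 and 0.91).

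No regulator of the response and no co-chaperone passed, and their values went both ways. Xbp1, the factor spliced by the sensor Ire1, had means of 28 and 17.2 FPKM at E14.5 and of 74.2 and 81.9 at E15.5 (log2 1.78, SE 0.43, adjusted p = 0.12). Its difference in cells without insulin was 1.97. Dnajb9, an Hspa5 co-chaperone, had 12.7 and 12.4 against 42.8 and 91.4 (log2 2.23, SE 0.50, adjusted p = 0.088). Sdf2l1 (log2 1.10, adjusted p = 0.083), Dnajc3 (1.63, adjusted p = 0.31), Herpud1 (0.97, adjusted p = 0.33) and Fkbp2 (0.92, adjusted p = 0.29) had both E15.5 sets above both E14.5 sets as well. Ddit3, a factor linked to cell death under ER stress, had 23.2 and 0.60 against 30.4 and 35.5, a difference that lay in run 2. Atf4, Atf6, Ssr1 and Ssr3 were the 4 members with a negative difference, from -0.50 to -0.0049 log2 units, and none passed.

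**Figure D3:**
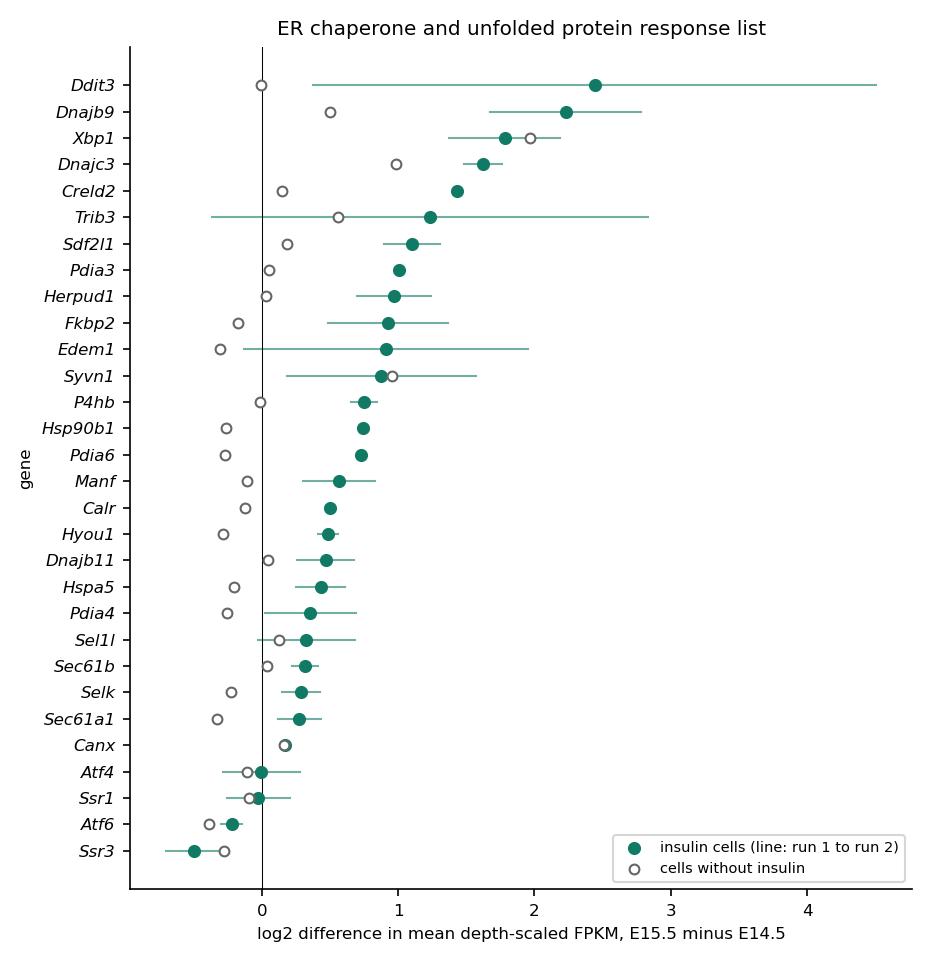
Log2 difference between E15.5 and E14.5 (horizontal axis) for each of the 30 ER list genes (vertical axis, ordered by the difference in insulin cells). Filled points are insulin cells, with a line from the run 1 to the run 2 value, and open points are cells without insulin; the filled points are positive for 26 genes with a median of 0.65, and the open points have a median of -0.05.

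The upstream sequences of these genes are shown because several hold the ER stress element, a motif through which Atf6 and Xbp1 are known to act. The element was searched as CCAAT and CCACG with 9 bases of any kind between them, on both strands, in the 250 bases before the start of each gene (RefSeq, GRCm38.p6). The element was present in 8 of the 25 list members with an entry (32%), namely Calr, Canx, Creld2, Dnajc3, Hsp90b1, Hspa5, Pdia6 and Syvn1, and in 0.113% of 32851 promoters. List members were counted by gene and the background by promoter entry, so the percentages differ in unit. A shorter form of the element, ATTGG and CCACG with 1 base between them, was found in 0.0304% of promoters and, within the list, in Herpud1, which held no match of the longer one. Stretches of 70 bases are written 5′ to 3′ on the strand of the gene, with the fixed letters of the element in capitals; in Creld2 and Hsp90b1 the element lies on the other strand and reads in reverse complement. Hsp90b1 held 2 matches in its window, of which 1 is shown. The stretches are chr15:88819495-88819564 (plus strand) for Creld2, chr2:34772000-34772069 (plus) for Hspa5, chr10:86705507-86705576 (minus) for Hsp90b1, chr12:17266466-17266535 (plus) for Pdia6, chr14:118937802-118937871 (plus) for Dnajc3 and chr8:94386348-94386417 (plus) for Herpud1.
Creld2: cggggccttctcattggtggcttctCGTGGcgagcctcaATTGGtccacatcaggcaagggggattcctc
Hspa5: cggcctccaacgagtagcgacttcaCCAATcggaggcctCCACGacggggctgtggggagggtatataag
Hsp90b1: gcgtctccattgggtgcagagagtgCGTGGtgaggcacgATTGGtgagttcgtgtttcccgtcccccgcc
Pdia6: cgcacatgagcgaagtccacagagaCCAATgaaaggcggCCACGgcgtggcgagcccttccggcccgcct
Dnajc3: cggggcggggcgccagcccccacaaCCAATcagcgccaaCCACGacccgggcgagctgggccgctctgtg
Herpud1: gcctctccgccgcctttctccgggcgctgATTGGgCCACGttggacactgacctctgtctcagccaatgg
All 8 members with the longer element had a positive difference, with a median of 0.73 log2 units, and 14 of the 17 members with an entry but without it did, with a median of 0.91. A match describes the letters only, and binding at these sites was not measured.

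The ER list was also summed in single cells. The summed level of the 30 genes had medians of 5518 and 8023 depth-scaled FPKM in the E14.5 sets and of 10618 and 9618 in the E15.5 sets, with cells from 2735 to 20685 in the first and from 3740 to 26252 in the last. Cells without insulin had medians of 4558, 4275, 4046 and 3450. Both E15.5 insulin medians lay above both E14.5 insulin medians, and every insulin median lay above all 4 medians of cells without insulin. Ins1 and Ins2 chose the cells, so their relation to the list is a description with no test. Within each set, Pearson's r of the summed list with Ins1 + Ins2 on the log2 scale was 0.60 (8 cells), 0.59 (13), 0.62 (20) and 0.78 (23), and Spearman's rho was 0.55, 0.43, 0.61 and 0.85; the 2 axes share a library and its depth scaling. With the insulin minimum raised to 1000 FPKM, which left 5, 10, 12 and 18 cells, the list's median day difference was 0.70.

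**Figure D4:**
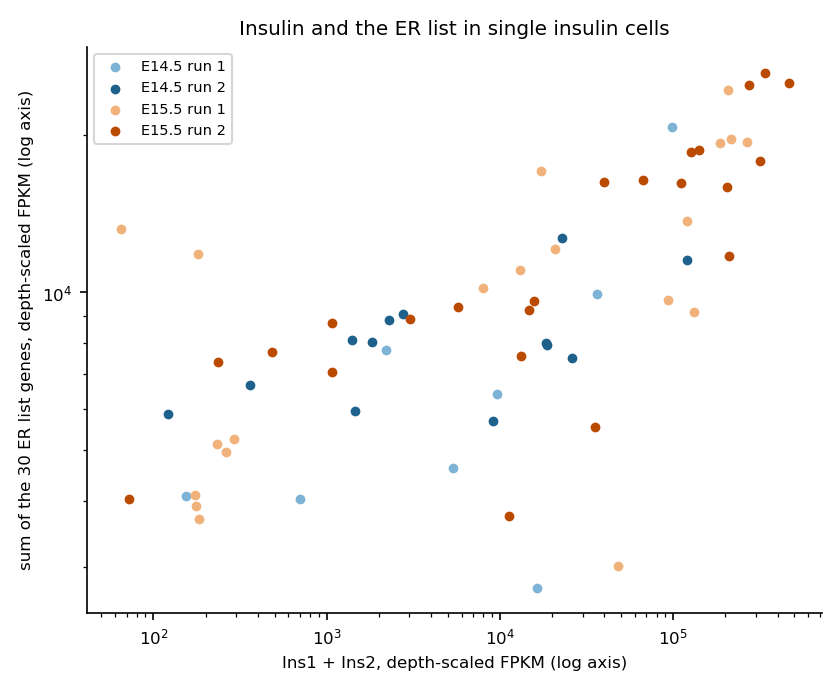
Summed depth-scaled FPKM of the 30 ER list genes (vertical log axis) against Ins1 + Ins2 (horizontal log axis) in each of the 64 insulin cells, coloured by day and run. The highest sums lie among cells with much insulin transcript, the scatter is wide at every level, and cells of both days overlap.

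Further secretory pathway genes passed outside the list; they were picked from the calls after their values were seen, and so are no independent support for it. Ddost, a subunit of the oligosaccharyltransferase that glycosylates nascent proteins, had means of 268 and 361 FPKM at E14.5 and of 992 and 779 at E15.5 (log2 1.5, SE 0.23, adjusted p = 0.0077). Serp1, a small protein of the translocon, had 65.3 and 62.5 against 198 and 260 (log2 1.81, SE 0.31, adjusted p = 0.015). Tmed3, a cargo receptor between ER and Golgi, had 187 and 272 against 595 and 518 (log2 1.30, SE 0.25, adjusted p = 0.037). Derl3, which removes misfolded proteins from the ER, had 0 and 14.4 against 28.4 and 77.8 (log2 3.62, adjusted p = 0.048). H13, the signal peptide peptidase, had 13.9 and 9.64 against 78.5 and 86.3 (log2 2.73, SE 0.47, adjusted p = 0.016). In cells without insulin the differences were 0.89 for Ddost, 1.62 for Serp1, -0.55 for Tmed3, 0.98 for Derl3 and 3.14 for H13. Serp1 and H13 thus had the same sign and a like size in both kinds of cell, and Tmed3 had opposite signs.

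Of granule and prohormone genes, 1 of 29 tested passed, against 0.347% of all genes, and 22 were positive, against 49% of all genes (median 0.21). Both E15.5 sets lay above in 10 members (34.5%, against 16.9% of all genes). The gene past the test was Scg2, encoding the granule protein secretogranin II, with means of 51.1 and 105 FPKM at E14.5 and of 411 and 397 at E15.5 (log2 2.44, SE 0.31, adjusted p = 0.0018). Slc30a8, the zinc transporter of insulin granules, had 107 and 84.2 against 206 and 103 (adjusted p = 0.64). Of glucose sensing and secretion genes, 1 of 20 passed: Nnat, the imprinted gene neuronatin, which aids signal peptide cleavage in beta cells. Nnat had 1341 and 2092 FPKM at E14.5 against 2522 and 3914 at E15.5 (log2 0.91, SE 0.16, adjusted p = 0.023), against -0.07 in cells without insulin. The set means of the days did not overlap, although the run 2 mean at E14.5 lay near the run 1 mean at E15.5. The median cell held 1740 and 1605 FPKM of Nnat at E14.5 against 1677 and 3147 at E15.5, so that it was not higher in run 1, and with the mean of logs the difference was 0.05 (adjusted p = 0.97 in limma). Slc2a2, the glucose transporter, and G6pc2, the islet glucose-6-phosphatase, differed by 0.93 and -0.02 log2 units (adjusted p = 0.63 and 0.996).

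Several of the genes past the test had differences of a like size in cells without insulin. Of the 23 named genes higher at E15.5, 20 had a positive difference in those cells too. Uqcrfs1, a subunit of respiratory complex III, had means of 11.2 and 25.3 FPKM at E14.5 and of 141 and 158 at E15.5 (log2 3.07, SE 0.41, adjusted p = 0.0022), with medians over cells of 7.17, 23.6, 130 and 142; cells without insulin gave 2.67. Pgls, an enzyme of the pentose phosphate pathway, gave 3.05 in insulin cells and 3.98 in the others, and Tsen34, a subunit of the tRNA splicing endonuclease, gave 3.75 and 3.09. Akr7a5, Fkbp1a, H1f0, Malsu1, Sod1 and Trappc6b also passed, at 0.96 to 3.14 log2 units, with 0.73 to 1.72 in cells without insulin. The other 3 were Tmed3, Nnat and Tmem42, the last with 4.14 in insulin cells against -0.03. In cells without insulin themselves, none of 15313 genes passed in the same limma fit (0.0%), with 891 at an unadjusted p under 0.05. Even the Y-linked Eif2s3y did not pass there, at 0 and 0 FPKM against 62.1 and 87.5 (log2 6.22, SE 0.45, adjusted p = 0.71 in limma). The absence of calls thus does not show that those cells were alike on both days.

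Fewer genes were lower at E15.5. Slc38a5, a glutamine transporter encoded on the X chromosome (chrX:8271133-8280179), had means of 6223 and 4954 FPKM at E14.5 and of 3470 and 2475 at E15.5 (log2 -0.92, SE 0.15, adjusted p = 0.010). The same difference was -0.96 in cells without insulin and -0.02 with the FPKM as deposited, and the 473 X-linked genes tested had a median of -0.21. The part of the sex difference in the Slc38a5 value was not tested. Plac8 had 70.2 and 54 against 0 and 12.8 (log2 -4.07, adjusted p = 0.049) and was above 0 in 4 of 8 and 5 of 13 cells at E14.5 and in 0 of 20 and 2 of 23 at E15.5. Hdhd3 had 129 and 26 against 8.02 and 4.44 (log2 -3.08, adjusted p = 0.034). Below these, Ndrg2, Slc5a6, Pcdhb6, Aqp7 and Arhgap4 had the largest separations without passing, at -4.30 to -3.08 log2 units (adjusted p = 0.12, 0.32, 0.37, 0.19 and 0.35).

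Factors that define beta cells gave no call. Of 18 beta cell transcription factors tested 0 passed in limma, with 2 at an unadjusted p under 0.05, and 7 were positive and 11 negative (median -0.16). Over all genes 0.347% passed, 8.48% had an unadjusted p under 0.05 and 49% were positive. The counts of calls are near these shares, so they are no result about beta cell factors. Pdx1 had means of 16 and 47.9 FPKM at E14.5 and of 30.4 and 64 at E15.5, and Nkx6-1 had 24.6 and 35.3 against 18.4 and 32.5. For Pdx1 and Nkx6-1 the runs differed more than the days. Mafa, the factor of mature beta cells, reached 10 FPKM in 0 of 64 cells, with 0 of 21 at E14.5 (95% exact upper limit 16.1%) and 0 of 43 at E15.5 (8.2%). By their markers most of these cells, chosen by Ins1 or Ins2, thus held Iapp, Pdx1, Nkx6-1 and G6pc2, but hardly any held Mafa. Pdx1 reached 10 FPKM in 18 of 21 insulin cells at E14.5 and in 31 of 43 at E15.5. The counts were 18 and 30 for Nkx6-1, 17 and 30 for G6pc2, and 11 and 23 for Slc2a2.

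Of 13 progenitor and precursor factors tested in limma 0 passed and 1 had an unadjusted p under 0.05. These counts are near the shares of all genes, 0.347% and 8.48%. The 13 factors went both ways, with 6 positive and 7 negative and medians of -0.43 in run 1 and 0.15 in run 2. Pax4 had means of 221 and 99.6 FPKM at E14.5 and of 38.7 and 76.5 at E15.5 (log2 -1.43, SE 0.43, adjusted p = 0.29). It reached 10 FPKM in 75% and 61.5% of cells at E14.5 against 30% and 43.5% at E15.5, and without the pair of alike libraries its E14.5 means were 179 and 75.2. Fev had means of 17.9 and 23.3 against 3.72 and 12.7 (adjusted p = 0.60) and reached 10 FPKM in 50% and 53.8% of cells against 15% and 34.8%. For both genes the shares of the E15.5 sets lay under those of the E14.5 sets, but the 95% exact intervals of the sets overlapped. Neurog3 had 156 and 35.1 against 102 and 39.1 (log2 -0.23, and 1.28 without the alike libraries), and reached 10 FPKM in 50% and 15.4% of cells against 20% and 26.1%, lower in run 1 and higher in run 2. Hes6, a factor of the Notch pathway's target family, had 26.8 and 75.6 against 44.6 and 132 (log2 0.76, adjusted p = 0.61 in limma). With 2 sets a day, an exact permutation test of a share cannot fall under 0.33. Of 22 cell cycle genes tested in limma 0 passed and 0 had an unadjusted p under 0.05, and 8 had both E15.5 sets below both E14.5 sets (36.4% against 15.8% of all genes).

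The remaining lists gave 2 calls, while 0.347% of all genes passed. Of 16 imprinted genes 1 passed (Nnat, as above), and of 8 genes of other islet lineages 1 passed (Slc38a5, also above). None passed in limma among 10 cyclins D and CDK inhibitors (2 at an unadjusted p under 0.05, which 8.48% of all genes had; median 0.08), 5 serotonin genes (1, median -0.63), 6 genes low in mature beta cells (0, median -0.16), 12 immediate-early genes (2, median 0.66), 18 adhesion and guidance genes (0, median 0.02) and 12 mitochondrial genes (2, median -0.25). The immediate-early list, which responds quickly to cell handling as well as to signals, had 3 members (25%) with both E15.5 sets above both E14.5 sets, against 16.9% of all genes.

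**Figure D5:**
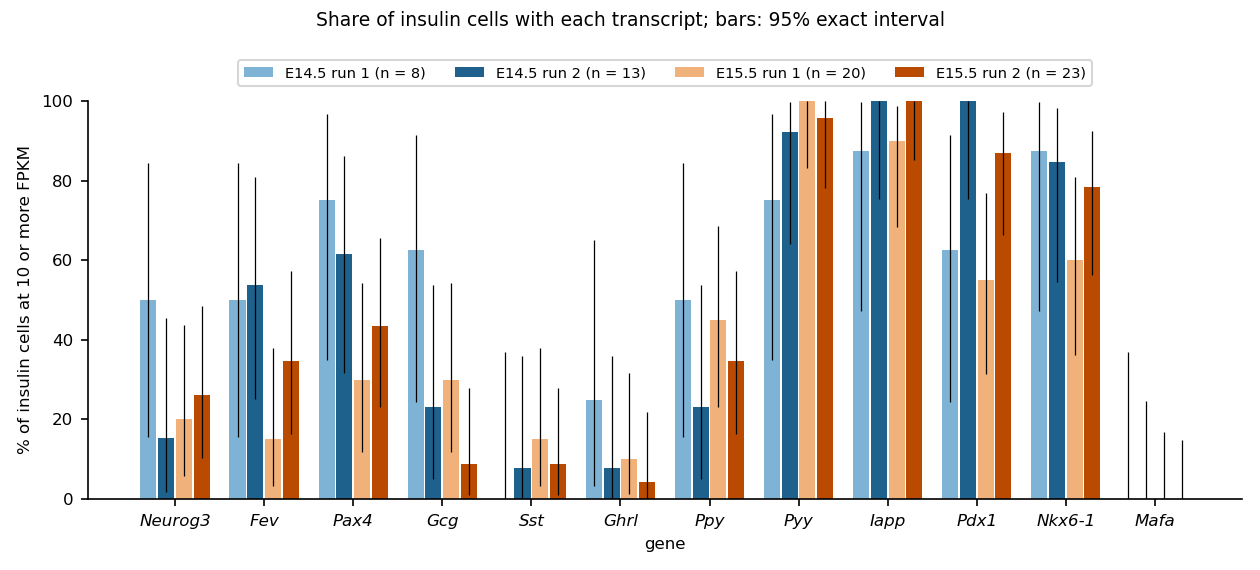
Percentage of the insulin cells of each set (vertical axis) with at least 10 depth-scaled FPKM of each gene (horizontal axis); vertical lines are 95% exact intervals, which cover counting error only. Fev and Pax4 shares lie lower in both E15.5 sets, Pyy and Iapp are present in most cells of every set, and Mafa is at 0 in all 4.

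Markers of other cells, those of duct and trunk apart, had low sums in the insulin cells. Summed over 15 acinar and tip genes, the 4 sets held 21.8, 49.7, 53.8 and 41.3 FPKM, with Amy2a5, Pnlip and Cela2a at 0. Leukocyte markers summed to 10.4, 23.2, 42 and 44 over 11 genes, higher in both E15.5 sets and led by C1qa, with Tyrobp and Aif1 at 0. In cells without insulin the leukocyte sums were lower, at 7.62, 9.09, 6.65 and 10.6. C1qa was above 0 in 2 of 8 and 4 of 13 insulin cells at E14.5 and in 10 of 20 and 13 of 23 at E15.5. Endothelial markers summed to 10.2 to 25.5 over 9 genes, mesenchymal markers to 5.01 to 26.6 over 10, and erythroid markers to 0.17 to 4.48 over 9. Duct and trunk markers, which endocrine cells share in part, summed to 840 to 1439 over 13 genes. The part of these transcripts in the day differences was not tested.

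To ask whether insulin cells changed differently from their neighbours, the day difference was set against that of cells without insulin in a single fit. None of 15313 genes passed in limma (0.0%), the lowest adjusted p was 0.288, and 562 genes had an unadjusted p under 0.05. On simulated data this fit recovered almost none of the genes made to change, so the absence of calls carries little information. Pyy differed from cells without insulin by 0.45 log2 units, Creld2 by 1.29, Pdia3 by 0.95, Nnat by 0.97 and Tmed3 by 1.85 (adjusted p = 0.94, 0.93, 0.93, 0.95 and 0.85). No gene, those of the ER list included, was therefore shown to change differently in insulin cells, and these values do not show that the changes were alike.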

How the data were processed

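Single-cell cDNA was made by SMART-seq and libraries with Nextera XT, per the labels' protocols. The submitters' processing notes name TopHat2 2.0.13, Cufflinks 2.2.0 and the build mm10. The deposited values are the authors' FPKM per gene and cell. They went up with the total mass the labels give for each cell, taken here as its mapped fragments (r = 0.964 to 0.984 per set on log scales), and 1 Neurog3 fragment was worth 1.29 FPKM in run 2 cells of 156808 to 1480000 fragments, so the deposited FPKM hold no division by the cell's own depth. Values were therefore multiplied by 587177 (median fragments of kept cells) and divided by the cell's fragments. The analysis plan had named the FPKM as deposited; the scaling was chosen after the values were seen, because of this unit, and the plan's fit is given as an alternative.

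Insulin cells were averaged per set, and log2(mean FPKM + 1) of genes with a mean of at least 1 FPKM was fitted with limma 3.58.1 (R 4.3.3, eBayes with an intensity trend), day and run as terms. P-values were two-sided and adjusted by Benjamini-Hochberg over all genes tested, threshold 0.05; Ins1 and Ins2 were left out. The fit has 1 residual degree of freedom before moderation. The labels name no animals, so p-values measure the spread between 4 sets only. The labels' descriptions give each cell's run, and both days have both runs, so the run served as the replicate block; run 1 minus run 2 differences at E14.5 and E15.5 correlated at 0.139 over genes. Tested on simulated data, the fit called more unchanged genes than its threshold allows, so adjusted p-values are likely too small, and the fit of the difference from cells without insulin recovered few changes.

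The cells and gene lists (22 in all) were chosen with earlier results of these data known. Named genes were those past the test with the same direction in both runs and at least 10 FPKM in the higher day (up to 12 a direction, filled up to 8 with the largest differences of sets that did not overlap), up to 6 members of a list or else its 3 largest, and fixed hormone, factor and sex-linked genes; predicted and sex-linked genes were not named by size. The other calls, and ER list members beyond that rule, were named after their values were seen. The difference from cells without insulin named no gene, and 1 gene of the fixed names is not reported here. Promoters and gene positions came from RefSeq (GRCm38.p6) and GENCODE vM21 (mm10 is GRCm38). Alternatives changed the insulin minimum, averaging, pseudocount, filter, scaling, depth minimum, Gcg-positive cells, run term, sets, the alike libraries and the moderation. Intervals of shares are exact Clopper-Pearson at 95% and cover counting error only.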

Additional observations from a re-analysis of the deposited data

How the results depend on the processing

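The number of genes differing between the days was 49 and moved with nearly every choice. It was 396 with the FPKM as deposited (384 higher and 12 lower), 16 and 26 with an insulin minimum of 10 and 1000 FPKM, 260 and 17 with a pseudocount of 0.1 and 10, 12 with genes of at least 10 FPKM and 309 with no filter. It was 18 with cells rescaled over genes other than predicted and mitochondrial ones, 102 when insulin was also left out of that total, 10 with cells of at least 300000 fragments and 14 with cells under 100 FPKM of Gcg. Without the replicate block (the run term) it was 2, and with each set left out in turn, together with the run term, it ranged from 0 to 0. Chosen after seeing the data, the insulin minimum on scaled values gave 18, moderation without an intensity trend 0 and robust moderation 148. Centring the sets gave 37, the mean of logs 60 and leaving out the alike libraries 70. The 26 named genes kept their direction in all 22 alternatives, which draw on the same sets. Between 0 and 26 of them stayed past the threshold, and the cause was not tested. The difference from cells without insulin passed for 1 gene, a predicted one, with the insulin minimum on scaled values, and for 0 in its other alternatives.

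Genes whose direction reversed were all ones that had not passed. With the FPKM as deposited, the log2 difference became 1.57 for Gcg, 0.16 for Neurog3, 0.44 for Nkx6-1, 0.70 for G6pc2, 0.79 for Atf4, 0.52 for Atf6, 0.96 for Ssr1 and 0.25 for Ssr3. With an insulin minimum of 10 FPKM it became 1.25 for Gcg, -0.04 for Canx and 0.01 for Atf4, and with 1000 FPKM -3.94 for Ghrl, 0.39 for Nkx6-1 and 0.56 for G6pc2. The mean of logs gave -0.59 for Ghrl and 0.35 for Ssr1. Cells of at least 300000 fragments gave 1.42 for Gcg, 0.04 for Atf4 and 0.13 for Ssr1. Cells under 100 FPKM of Gcg gave 1.33 for Neurog3 and 0.12 for G6pc2. They also gave 0.52 for Gcg, but Gcg itself chose those cells, so that value says nothing of its direction. Without the alike libraries Neurog3 was 1.28 and Atf4 0.04, and with the minimum on scaled values Atf6 was 0.05. With each set left out, Gcg ranged from -0.55 to 0.52, Ghrl from -0.34 to 5.52, Neurog3 from -1.29 to 0.83, Pdx1 from -0.12 to 1.41, Nkx6-1 from -0.65 to 0.14, G6pc2 from -0.30 to 0.27, Hes6 from -0.02 to 1.53, Atf4 from -0.67 to 0.66, Atf6 from -0.61 to 0.17 and Ssr1 from -0.28 to 0.23. With 8 to 23 cells a set and 2 sets a day, small differences could not be detected.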
